A study of Mus musculus with 2 samples.

Results

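Neurofilaments and other intermediate filaments were followed through 6 genes: the neurofilament subunits Nefl, Nefm, Nefh and Ina, and the glial and mesenchymal filament genes Gfap and Vim. A gene's reads were all reads on transcript models carrying its symbol in the deposited count tables, and exon chains came from the deposited annotation. All 6 were read, out of 19042 annotated genes with a read in either library. They took 2677 reads in replicate 1 and 2517 reads in replicate 2. The study sequenced full-length cDNA with long reads from hippocampus (labelled as a layer of hippocampus) of 14-day-old B6CASTF1/J females, which are F1 crosses of the C57BL/6J and CAST/EiJ strains. There is 1 group of 2 libraries, each made from 2 µg of RNA pooled from 3 animals, with ERCC and SIRV spike-ins added. No animal was treated, so the comparison is between the replicate pools. The characteristics number different animals for each pool, while a description line of replicate 2 repeats the animal numbers of replicate 1.

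Intermediate filaments are rope-like polymers of proteins that share a central coiled-coil rod with variable head and tail domains. In neurons NF-L, NF-M, NF-H and alpha-internexin (the products of Nefl, Nefm, Nefh and Ina) co-assemble along axons, where they set axon calibre, and the long tails of NF-M and NF-H project from the filament core and are heavily phosphorylated as axons mature. GFAP is the main filament protein of mature astrocytes, and vimentin that of radial glia, endothelium, fibroblasts and immature astrocytes.

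Replicate 1 held 1168366 reads and replicate 2 held 888704, so 1 read was worth 0.856 and 1.13 CPM (reads per 1000000 reads of the library). The libraries differed in ways that touch the results below. Long transcripts were read more in replicate 2: among genes with at least 50 reads, the median log2 ratio of replicate 2 over replicate 1 rose from -0.66 for transcripts of 500 to 1000 nt to 0.30 for those of 4000 nt or more. The 4 choroid plexus and ependyma markers (Ttr, Kcnj13, Clic6, Foxj1) summed to 4622 CPM in replicate 1 and 10.1 in replicate 2, where Kcnj13 and Clic6 had no reads. Ttr alone stood at 4558 and 5.63 CPM, and Foxj1 at 3.42 and 4.50 CPM. All 6 neuron markers and all 5 hippocampal field markers were read in each library, with sums of 4982 and 5255 CPM for neurons and 614 and 775 CPM for hippocampal fields. In bulk tissue, fewer cells of a type and less RNA per cell cannot be told apart. Intervals are exact Clopper-Pearson intervals at 95% and cover counting error only. All p-values treat reads as the unit and compare these libraries, not conditions.

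The 4 neurofilament genes share an internal exon of 125 nt, which is exon 2 of Nefl, Nefm and Ina and exon 3 of Nefh and encodes part of the conserved rod. It is shown for Nefl and Ina because its sequence differs between these subunits although its length does not (mm10, 5′ to 3′ on the coding strand, from the GENCODE M21 transcripts). Capitals mark bases identical in both genes.
Nefl exon 2: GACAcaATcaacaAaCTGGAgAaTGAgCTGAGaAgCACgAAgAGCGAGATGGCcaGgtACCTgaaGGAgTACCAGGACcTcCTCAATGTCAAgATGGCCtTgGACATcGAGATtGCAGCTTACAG
Ina exon 2: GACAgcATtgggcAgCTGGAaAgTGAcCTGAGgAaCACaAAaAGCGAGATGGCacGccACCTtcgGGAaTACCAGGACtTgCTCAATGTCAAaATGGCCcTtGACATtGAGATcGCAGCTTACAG
These exons lie at chr14:68085974-68086098 on the plus strand (Nefl) and chr19:47021833-47021957 on the plus strand (Ina). Of the 125 bases, 95 (76.0%) were identical. Spliced reads spanning this exon carried it with its annotated borders in 99.9% (replicate 1) and 99.8% (replicate 2) of cases for Nefl, in 98.8% in each library for Ina, and in 100% for Nefm and Nefh, with lower limits of 96.2% for Nefm and 92.0% and 89.4% for Nefh.

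Nefl, the light subunit that neurofilaments need in order to assemble, was by far the most read member. It had 1805 reads (1545 CPM, counting interval 1474 to 1618) in replicate 1 and 1703 reads (1916 CPM, counting interval 1826 to 2009) in replicate 2, a mean of 1731 ± 263 CPM (SD, n = 2) and place 30 among all genes. Ina had 181 reads (155 CPM) and 176 reads (198 CPM), a mean of 176 ± 30.5 CPM. Nefm, the medium subunit, had 181 reads (155 CPM) and 130 reads (146 CPM), a mean of 151 ± 6.11 CPM. Nefm and Ina thus tied in replicate 1. In replicate 2 Ina was higher, and their intervals overlapped narrowly (122 to 174 CPM for Nefm and 169.9 to 229.6 CPM for Ina). The levels of Nefm and Ina were not tested against each other. Nefh, the heavy subunit whose tail is the longest of the 3 neurofilament triplet proteins, was the least read of the 4, with 52 reads (44.5 CPM) in replicate 1 and 35 reads (39.4 CPM) in replicate 2, a mean of 41.9 ± 3.62 CPM.

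Expressed as shares of the reads of the 4 neurofilament genes, Nefl took 81.3% in replicate 1 and 83.3% in replicate 2, with intervals of 79.7 to 82.9 and 81.6 to 84.9. Ina took 8.16% and 8.61%, Nefm 8.16% and 6.36%, and Nefh 2.34% and 1.71%. With only annotated transcripts counted, the Nefm share was 4.58% and 5.01%, below the Ina share of 8.11% and 8.65% in each library. These shares are of reads, not divided by length, because 1 read stands for 1 cDNA. Dividing by length lowers the values of long transcripts and is given as an alternative only. In CPM per kb of transcript Nefl stood at 457 and 567 and Ina at 47.8 and 61.1. Nefm stood at 46.5 and 43.9, and Nefh at 11.1 and 9.86, the same order as for the mean CPM.

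**Figure D1:**
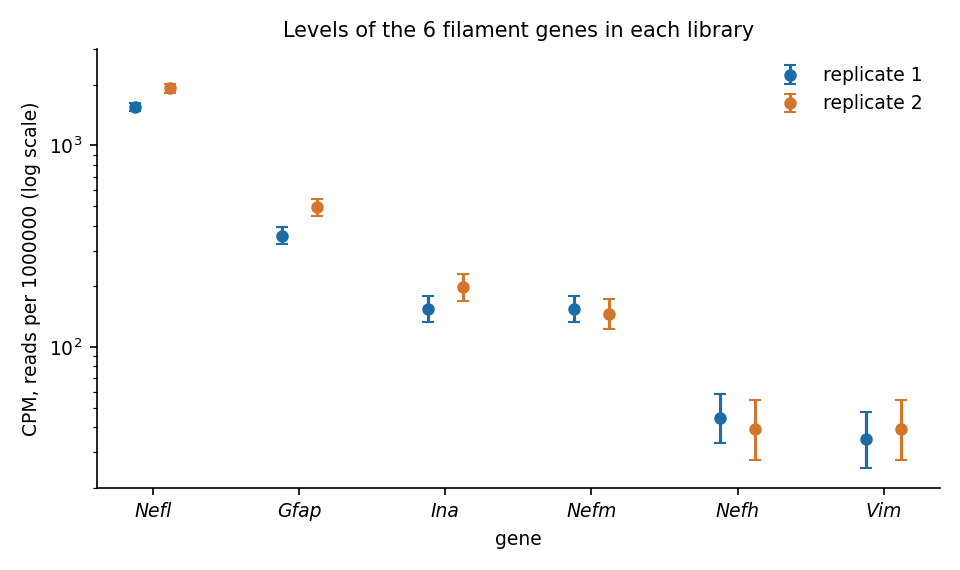
CPM (log axis) of each gene in replicate 1 and replicate 2, with points for the libraries and bars for exact 95% intervals that cover counting error only. Nefl lies at 1545 and 1916 CPM, Gfap at 357 and 493, Ina and Nefm between 146 and 198, and Nefh and Vim between 35.1 and 44.5.

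Between the libraries, 2 of the 6 members, Nefl and Gfap, passed the gene test, both higher in replicate 2, beside 10.8% of all 11681 genes tested (5.81% higher in replicate 2). Each gene's reads were set against the library totals in an exact binomial test (two-sided, the smaller tail doubled), with Benjamini-Hochberg adjustment over all genes with at least 10 reads. Nefl was higher in replicate 2 by 0.31 on the log2 scale of CPM plus 1 (adjusted p = 1.9e-08), and Gfap by 0.46 (adjusted p = 0.00011). Ina had a log2 ratio of 0.35 (adjusted p = 0.14), Vim of 0.16, Nefm of -0.08 and Nefh of -0.17, with adjusted p between 0.93 and 0.95 for the last 3. The median log2 ratio of all genes tested was 0.11. TMM scaling moved that median by -0.12, after which Nefl stood at 0.18 (adjusted p = 0.0034) and Gfap at 0.34 (adjusted p = 0.011), beside 9.74% of genes called.

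Transcript length moved with these differences. At the length of Nefl (3380 nt) the running trend of all genes was itself 0.28, and with it removed the Nefl log2 ratio was 0.03 (adjusted p = 0.99). At the length of Gfap (2648 nt) the trend was 0.22, which left a log2 ratio of 0.25 (adjusted p = 0.18). Neither gene was then called, beside 3.62% of genes. With the trend removed Nefm stood at -0.36 and Nefh at -0.46, neither past the threshold (adjusted p of 0.30 and 0.66).

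Markers of neurons and oligodendrocytes differed between the libraries as well. Of the 6 neuron markers 5 passed the exact binomial test (beside 10.8% of all genes), 4 higher in replicate 2, among them Rbfox3, a nuclear protein of mature neurons, at 209.7 and 339.8 CPM, and 1 lower, Nrgn, a postsynaptic protein, at 2145 and 1852 CPM. Of the 5 hippocampal field markers 3 passed, each higher in replicate 2: Prox1, a transcription factor of dentate granule cells, at 6.85 and 38.3 CPM, C1ql2 at 81.3 and 142 CPM, and Wfs1 at 108 and 159 CPM. The oligodendrocyte genes Mbp, a myelin protein, at 3287 and 4381 CPM, and Cnp, a myelin enzyme, at 754 and 1049 CPM, also passed as higher in replicate 2. Under TMM scaling Rbfox3, Nrgn, Prox1, C1ql2, Mbp and Cnp still passed. The neuron markers Snap25, Slc17a7 and Gad1 then did not (adjusted p of 0.82, 0.16 and 0.15, exact binomial test), nor did Wfs1 (0.13). With the length trend removed these 4 did not pass, Rbfox3, Prox1, C1ql2, Mbp and Cnp did, and Nrgn was not tested. None of the 2506 and 1646 Nrgn reads lay on an annotated transcript. The Nrgn level and calls thus rest on unannotated models, and no annotated length was available for it. The part of these cell types in the Nefl difference was not tested.

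**Figure D2:**
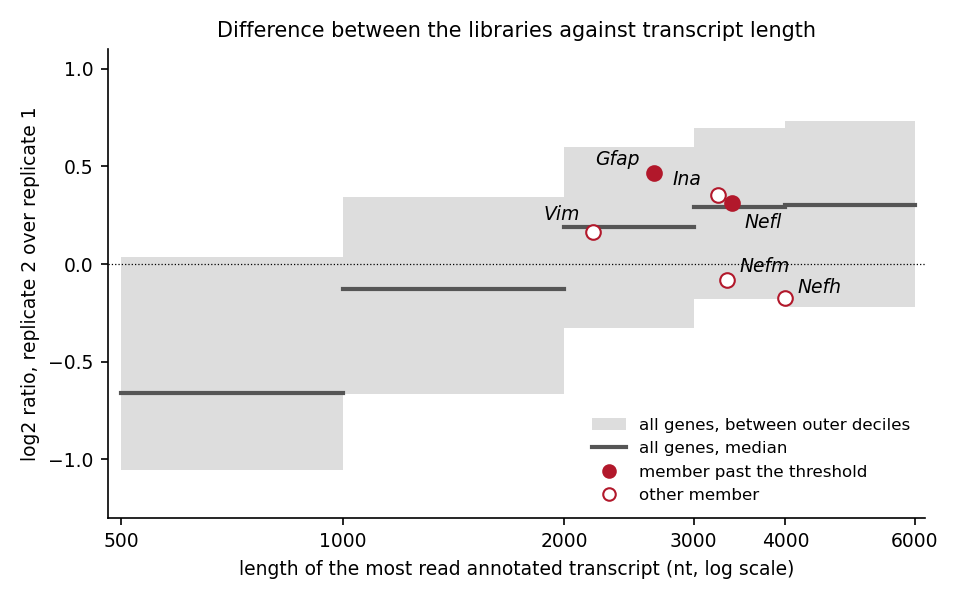
Log2 ratio of replicate 2 over replicate 1 (y axis) against the length of the most read annotated transcript (log axis, nt), with grey bands for the range between the outer deciles of all genes with at least 50 reads in each length range and lines for the median; the last range holds all longer genes. Nefl and Gfap (filled) passed the gene test, and Nefl sits beside the median of its length range, which is 0.29.

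Nefm was the member whose reads were least often full annotated chains. Its annotated transcript Nefm-201 (3 exons, 3334 nt, chr14:68119283-68124846, minus strand) took 91 of 181 reads in replicate 1 (50.3%, interval 42.8 to 57.8) and 96 of 130 in replicate 2 (73.8%, interval 65.4 to 81.2). The annotated share therefore differed by 23.6 points, and Nefm was the 1 member of 6 that passed this test, beside 0.696% of 6607 genes (two-sided Fisher exact test, adjusted p = 0.0092). The leading transcript share gives the same counts for Nefm and also passed (adjusted p = 0.00065), again 1 of 6 members, beside 7.43% of genes. Nearly all the remaining reads lay on 1-exon models inside the 3′ part of its last exon: 86 reads on a model of 462 nt in replicate 1 and 34 reads on a model of 358 nt in replicate 2. Both models end at the annotated transcript end.

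Among spliced Nefm reads alone the annotated share was 3.19 points higher in replicate 2, with an adjusted p of 1, beside 0.242% of genes called. The difference between the libraries thus lay in the 1-exon reads, whose share of all reads was 48.1% and 26.2%. Over genes with at least 20 reads, the median 1-exon share was 5.33% in replicate 1 and 4.00% in replicate 2, and Nefm lay above 94.0% and 89.6% of those genes. In all reads of a library, 1-exon models took 24.4% in replicate 1 and 19.8% in replicate 2, so the whole library moved in the same direction; its part in the Nefm difference was not tested. The level of annotated Nefm reads, 77.9 and 108.0 CPM, differed in the opposite direction to that of all Nefm reads, and on this count the log2 ratio was 0.47 (adjusted p = 0.17).

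**Figure D3:**
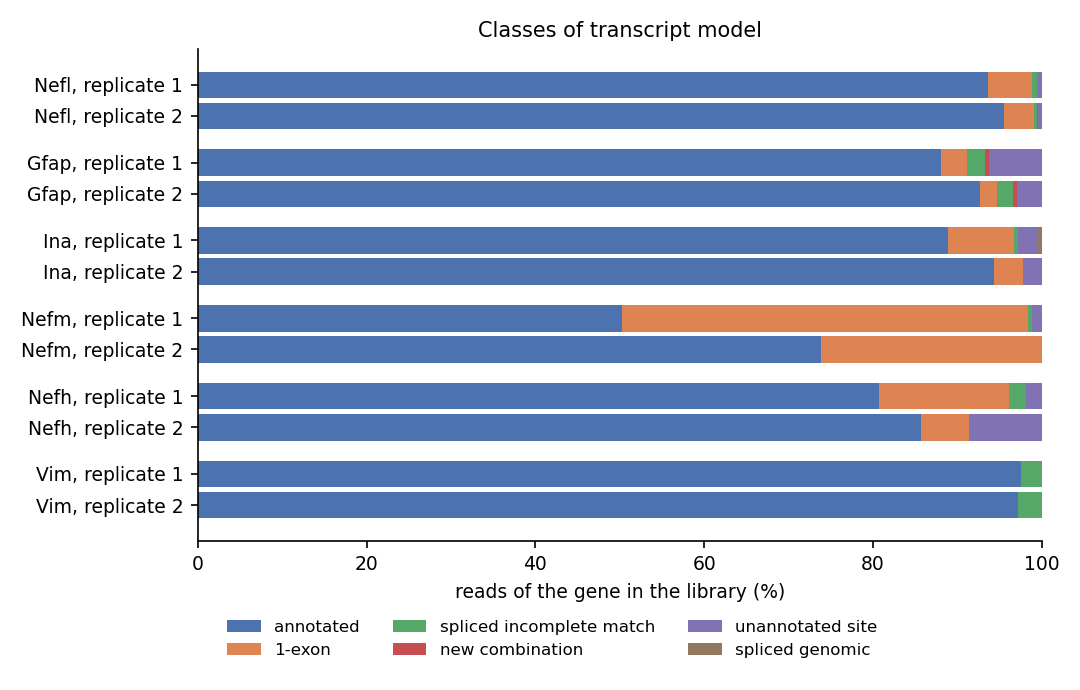
Share of each gene's reads (%) by class of transcript model, with 1 bar per gene and library. The 1-exon class takes 48.1% and 26.2% of Nefm reads and at most 15.4% of the reads of any other member.

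A longer annotated Nefm transcript, Nefm-202, has a last exon lying opposite exon 1 of Nefl. Nefl and Nefm point toward each other, with 30187 bases between the ends of Nefl-201 and Nefm-201. Nefm-202 had no reads in either library, which allows up to 2.57 CPM in replicate 1 and 3.38 CPM in replicate 2. A single read of replicate 1 lay on a 1-exon model at the Nefm-202 end (2420 nt) and carried the Nefm name.

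Nefl was read almost wholly as its only annotated transcript, Nefl-201 (4 exons, 3380 nt, chr14:68083863-68089095, plus strand): 1691 of 1805 reads (93.7%, interval 92.5 to 94.8) and 1626 of 1703 (95.5%, interval 94.4 to 96.4). This is above the median gene, whose annotated share was 74.1% and 75.0%. The largest other group was again made of 1-exon models in the last exon, with 93 reads on a model of the whole 1788-nt exon in replicate 1. In replicate 2, 47 reads lay on a model of the last 1205 nt of that exon and 14 on a model of its upstream 584 nt. Reads with an additional intron inside the 1147-nt exon 1, which encodes the head and most of the rod, numbered 6 in replicate 1 and 5 in replicate 2. Their introns were 46 to 826 nt long. Of the spliced unannotated Nefl models, 12 in each library, 4 had the same intron chain in both libraries.

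The 3′ ends of Nefl models fell at only a few positions. The sources used here do not state how the borders of models were set. Annotated models carry the annotated end whatever their reads did, and borders of unannotated models also fell on annotated ends, on splice sites or on a position shared by several models, so they need not be the ends of reads. Of the unannotated Nefl reads, 105 of 114 in replicate 1 and 58 of 77 in replicate 2 lay on models with the annotated end. The remaining 9 and 19 reads lay on models ending 1206 and 1204 nt upstream of it, at chr14:68087889 and chr14:68087891, which would leave a 3′ UTR of 442 or 444 nt in place of 1648 nt. In replicate 2 the same position was also the start of the 47-read model, so there it marks a shared model border and not only an end. The stretches that hold the hexamer AATAAA before each end are shown to compare them, since transcripts are cleaved downstream of such a poly(A) signal; the first stops short of the annotated end and the second reaches the internal end of replicate 1 (chr14:68089057-68089086 and chr14:68087861-68087889, mm10, plus strand, hexamer in capitals).
Nefl annotated end: tgtgccatAATAAAatattgaaaaaaaatc
Nefl internal end: aaatagtaAATAAAgttacactgaatgac
The nearest AATAAA begins 31 bases before the annotated end and 21 and 23 bases before the internal ends. A further copy lies within the 40 bases before each internal end, but none does before the annotated end. Searched on the transcript strand only, AATAAA occurs 7 times in the last exon of Nefl and its variant ATTAAA 2 times, and 11.8% of all 40-base windows of that exon hold AATAAA. Of the last 40 bases of 58616 protein-coding GENCODE M21 transcripts, 39.4% hold AATAAA and 11.2% hold ATTAAA. No filter for complete 3′ ends was applied to this set. In the 20 bases after the internal ends there are 3 and 2 A, and 93.9% and 98.4% of all 20-base windows of the exon hold at least as many.

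**Figure D4:**
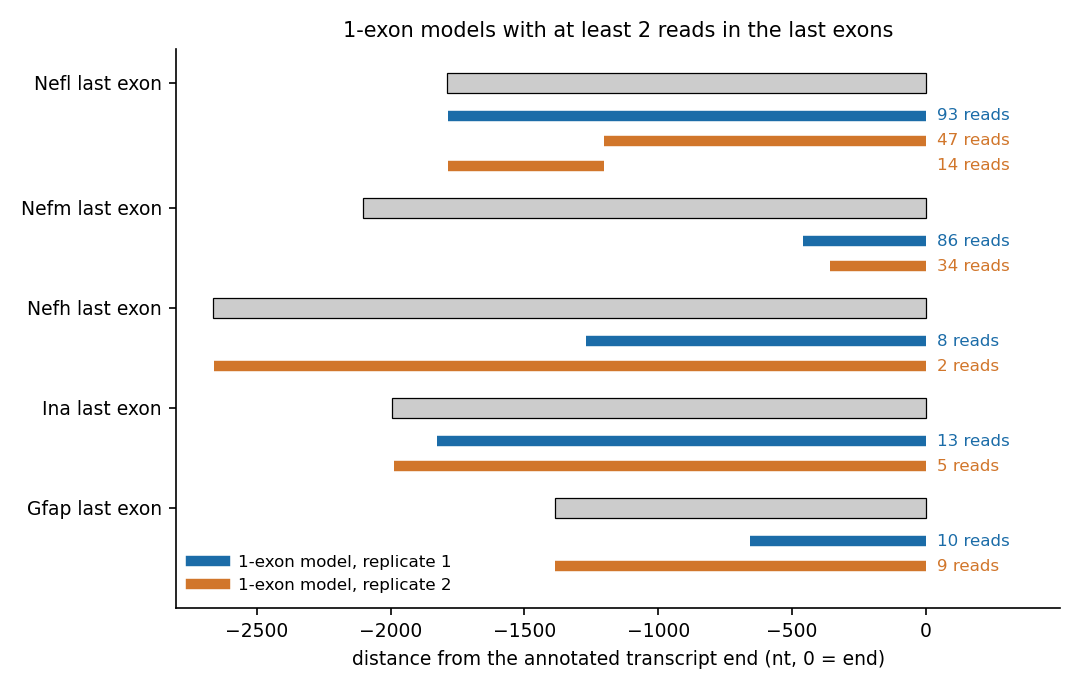
Last exons of the neurofilament genes and Gfap (grey boxes) with the 1-exon models of at least 2 reads that lie in them, by distance from the annotated transcript end (nt) and with their reads at the right. Most models reach the annotated end, their starts differ between the libraries, and a 14-read Nefl model of replicate 2 stops where the 47-read model starts.

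Ina, or alpha-internexin, precedes the neurofilament triplet during neuronal development. Its only annotated transcript, Ina-201 (3 exons, 3240 nt, chr19:47014698-47025327, plus strand), took 161 of 181 reads (89.0%) and 166 of 176 (94.3%), a difference that did not pass the test (two-sided Fisher exact test, adjusted p = 0.77). Its 1-exon models held 14 reads in replicate 1 and 6 in replicate 2. Of these, 13 and 5 lay in the last exon, and 1 read in each library lay on a model that runs from exon 1 into the first intron. No unannotated spliced Ina chain was found in both libraries. In replicate 1, 3 reads lay on models ending 983 nt before the annotated end, and none did in replicate 2.

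Nefh-201 (4 exons, 3994 nt, chr11:4938754-4948064, minus strand) took 42 of 52 Nefh reads (80.8%, interval 67.5 to 90.4) and 30 of 35 (85.7%, interval 69.7 to 95.2). The remainder were 8 and 2 reads on 1-exon models in the last exon, 3 spliced reads with an unannotated splice site in replicate 2, and 2 other unannotated spliced reads in replicate 1. All unannotated Nefh reads, 10 and 5, lay on models with the annotated end. At this depth the Nefh intervals span more than 20 points, and no difference was detectable.

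Gfap was the second most read member, with 417 reads (357 CPM, interval 323 to 393) in replicate 1 and 438 reads (493 CPM, interval 448 to 541) in replicate 2, a mean of 425 ± 96.1 CPM (SD, n = 2). Per kb of transcript this was 135 and 186 CPM. The 6 astrocyte markers moved the same way: their sum was 2688 CPM in replicate 1 and 4365 in replicate 2. Of them 5 passed the gene test as higher in replicate 2, beside 5.81% of all genes. None was at 0, and their median log2 ratio was 0.76, against 0.46 for Gfap. With the length trend removed Aldoc, Gja1, Slc1a3 and Slc1a2 still passed. Aldh1l1 (adjusted p = 0.21, exact binomial test), Aqp4 and Gfap did not. Slc1a3, a glutamate transporter of astrocytes, went from 533 to 934 CPM, and Aqp4, the water channel of astrocyte endfeet, stood at 53.9 and 67.5 CPM (adjusted p = 0.60, exact binomial test). The part of astrocyte content in the Gfap difference was not tested.

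Gfap-201, the alpha form (9 exons, chr11:102887336-102897131, minus strand), and Gfap-202, the form usually called delta, share exons 2 to 7 and part at the end of exon 7, while exon 1 begins farther upstream in Gfap-202 (at chr11:102897200). Alpha goes on to an 86-nt exon 8 and a 1386-nt last exon, and delta to a last exon of 1355 nt that lies in the intron between exons 7 and 8. After 1162 shared coding bases, alpha adds 128 coding bases and delta 122, so the forms differ in the end of the protein tail. The delta junction is shown because it sets this form apart: the last 24 bases of exon 7 in lower case, then the first 36 bases of the delta last exon in capitals (mm10, minus strand, within chr11:102891485-102891934).
Gfap delta junction: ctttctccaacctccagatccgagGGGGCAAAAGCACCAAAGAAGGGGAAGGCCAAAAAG
Among spliced Gfap reads, the alpha last exon was used by 376 of 404 (93.1%, interval 90.1 to 95.3) in replicate 1 and 406 of 429 (94.6%, interval 92.1 to 96.6) in replicate 2. The delta last exon was used by 14 reads (3.47%, interval 1.91 to 5.75) and 15 reads (3.50%, interval 1.97 to 5.70). Delta was thus 3.59% and 3.56% of alpha plus delta, and the libraries did not differ detectably (two-sided Fisher exact test, p = 1). Gfap-201 itself had 354 and 391 reads and Gfap-202 had 13 and 15.

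The remaining spliced reads mostly used the alpha region in another way. The 713-nt intron before the alpha last exon was retained in 7 and 3 reads. In 4 reads of each library the last exon began at an acceptor 302 nt upstream of the alpha one. Exon 7 was 4 nt longer at its 3′ edge in 9 reads of replicate 1 and 4 of replicate 2, the unannotated Gfap model with the most reads. An upstream exon 1 of 146 nt, 3636 nt before the main start and annotated in Gfap-203, was used by 2 reads and 1 read, all spliced on toward the alpha end, while Gfap-203 itself had no reads. These low counts recurred: 6 unannotated spliced Gfap chains were found in both libraries, more than for any other member.

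**Figure D5:**
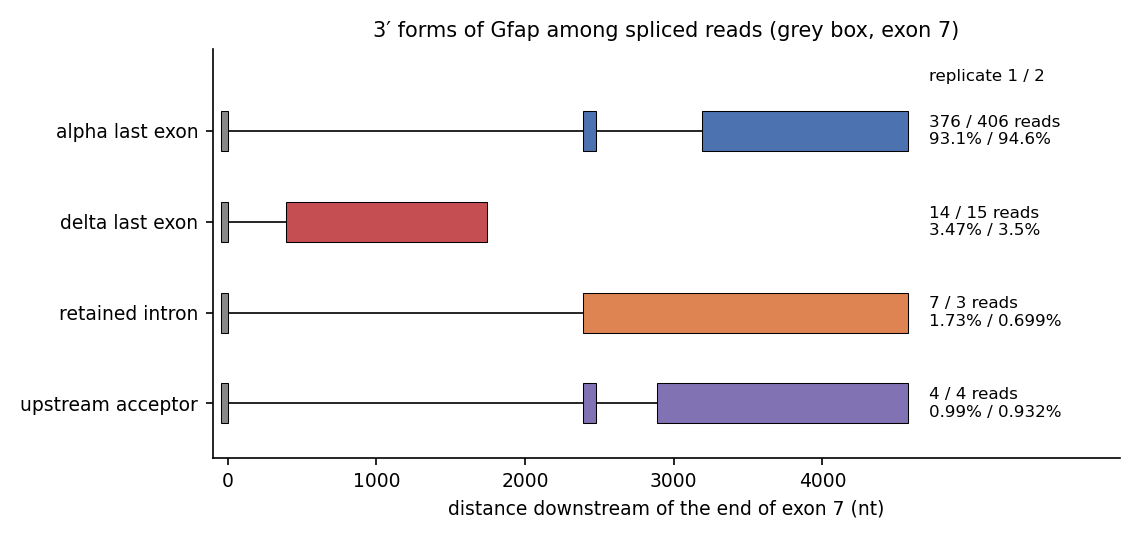
Exon maps of 4 Gfap 3′ forms by distance downstream of exon 7 (nt), with spliced reads and their percentage in replicate 1 and replicate 2 at the right. The alpha last exon holds 376 and 406 reads and the delta last exon 14 and 15.

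For the last exon of each member, none of the 6 differed between the libraries by the Fisher exact test, beside 0.0866% of 5776 genes called. The leading last exon held all spliced reads of Nefm, Nefh and Vim in each library, 99.9% of those of Nefl and 98.8% and 99.4% of those of Ina. Gfap, at 93.1% and 94.6%, lay below these and below the median gene at 98.9% and 99.1%. Its annotated share of all reads was 88.0% and 92.7% (adjusted p = 0.57, Fisher exact test). Of 1-exon Gfap reads, 10 and 9 lay in the alpha last exon, and 3 reads of replicate 1 lay in the delta last exon.

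Vim was the least read member, with 41 reads (35.1 CPM, interval 25.2 to 47.6) in replicate 1 and 35 reads (39.4 CPM, interval 27.4 to 54.8) in replicate 2, a mean of 37.2 ± 3.03 CPM. It tied with Nefh in replicate 2. Per kb of transcript, an alternative scale that lowers the longer Nefh more, Vim stood at 16.0 and 18.0 CPM, above Nefh at 11.1 and 9.86. Vim-201 (9 exons, 2193 nt, chr2:13573952-13582826, plus strand) took 39 of 41 and 34 of 35 reads, and Vim-203 had 1 read in replicate 1. No Vim read lay on a 1-exon model. Among markers of cells known to hold vimentin, the 4 endothelial and mural markers summed to 406 and 468 CPM, the 4 meningeal fibroblast markers to 131 and 88.9 CPM, and the 5 radial glia and dividing cell markers to 200.3 and 182.3 CPM. Most of the last sum came from Hopx, at 146 and 105 CPM, and Sox2, at 40.2 and 64.1 CPM. Nes had 9 and 9 reads, Top2a 5 and 3, and Mki67 3 and 0. Of the markers of all 3 groups, the 11 with at least 10 reads were tested and none passed the gene test beside 10.8% of all genes. Under TMM scaling Hopx passed, higher in replicate 1 (adjusted p = 0.017, exact binomial test). The part of such cells in the Vim level was not tested.

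Gfap and Vim, both type III filament genes, have the same number of exons, and their internal exons 2 to 8 are equal in length: 61, 96, 162, 126, 221, 44 and 86 nt. Over these 796 bases 65.5% were identical, from 52.3% in exon 7 to 75.1% in exon 6. Exon 7 of each gene is shown as the last exon before the Gfap forms part (chr11:102891911-102891954, minus strand, and chr2:13580640-13580683, plus strand), with identical bases in capitals.
Gfap exon 7: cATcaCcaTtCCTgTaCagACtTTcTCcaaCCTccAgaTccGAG
Vim exon 7: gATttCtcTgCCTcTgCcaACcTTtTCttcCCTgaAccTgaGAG
Spliced reads spanning exon 7 carried it unchanged in 97.8% and 98.8% of cases for Gfap and in 100% for Vim in each library, where the lower limits were 91.4% and 90.0%. Exon 8 of Gfap, beside the retained intron, had the lowest share of the internal exons of the 6 genes, at 96.9% and 98.6%.

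Across the members, 49 unannotated models held 285 reads (10.6% of member reads) in replicate 1 and 39 held 159 reads (6.32%) in replicate 2. Most of them rested on 1 read, 32 and 26 models, and most of their reads were on 1-exon models, 75.4% and 70.4%. GENCODE M21 lists 14 transcripts for the 6 genes, of which 8 and 7 had reads. Reads in the deposited class of new combinations of known sites were rare: 2 of Nefl in replicate 2, and 2 of Gfap in each library. Of the Gfap reads of replicate 1 in this class, 1 joined the upstream acceptor to a shortened exon 8. Models with either site alone were classed as having an unannotated splice site, so that read is not a combination of annotated sites. By class, Gfap had the most reads with an unannotated splice site, 26 of 417 (6.24%) and 13 of 438 (2.97%). As a share, Nefh was higher in replicate 2, at 3 of 35 (8.57%, interval 1.80 to 23.1).

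The borders of unannotated models lay more often at the annotated end than at the annotated start. Models ending within 100 nt of the annotated end held 92.6% of these reads in replicate 1 and 87.4% in replicate 2, and models starting within 100 nt of the annotated start 15.8% and 18.9%. These models end on the annotated base itself, except 1 Vim model in each library that ends 1 nt before it, and windows of 50 and 200 nt gave the same shares at the end. The values therefore describe model borders, which may have been assigned, and not measured read ends. No unannotated Nefm read lay on a model with the annotated start, and for Gfap 32 of 50 and 17 of 32 did. Counting only spliced unannotated models, the mean over the libraries was 63.0% at the start and 83.3% at the end.

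Of 24 other intermediate filament genes (peripherin, nestin, desmin, lamins, keratins and relatives), 21 had reads, 13 could be tested and 0 passed the exact binomial test after adjustment, beside 10.8% of all genes. At an unadjusted p under 0.05 there were 3, Krt8, Krt10 and Krt18, each higher in replicate 1. Under TMM or DESeq2 scaling Krt8 and Krt10 passed, and Krt10 also passed with all reads over its exons (adjusted p = 0.049, exact binomial test). The highest levels were those of Lmna, a nuclear lamin, at 110 and 100.1 CPM, Iffo1 at 47.9 and 56.3, Krt222 at 32.5 and 28.1, and Krt10 at 35.9 and 15.8. Few of the Krt10 reads lay on annotated transcripts, 2 of 42 in replicate 1 and 0 of 14 in replicate 2. For Iffo1 these were 10 of 56 and 6 of 50. The Krt10 level and its calls thus rest mostly on unannotated models. The epithelial keratins Krt8 and Krt18 had 10 and 11 reads in replicate 1 and 0 and 1 in replicate 2. Of the choroid plexus and ependyma markers given above, Ttr, Kcnj13 and Clic6 were also higher in replicate 1. Foxj1 had 4 reads in each library. The part of such cells in the keratin values was not tested. Prph, which co-assembles with neurofilaments mainly in peripheral neurons, had 6 and 7 reads, Nes, the filament gene of neural progenitors, 9 and 9, and Des, the muscle filament gene, 3 and 4.

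Of 30 genes that link, phosphorylate, carry or turn over filaments, 28 had reads, 23 were tested and 4 passed the exact binomial test, 3 higher in replicate 2 and 1 higher in replicate 1 (beside 10.8% of all genes, 5.03% higher in replicate 1). Kif5a and Kif5c, kinesin heavy chains that carry neurofilaments along axons, were higher in replicate 2, Kif5a at 191 and 291 CPM (log2 ratio 0.61, adjusted p = 0.00015) and Kif5c at 330 and 511 CPM (0.63, adjusted p = 3.0e-08). Stub1, a ubiquitin ligase of misfolded proteins, was higher in replicate 1, at 383 and 304 CPM (-0.33, adjusted p = 0.029), and did not pass with annotated transcripts only (-0.24, adjusted p = 0.32) or with all reads over its exons (-0.26, adjusted p = 0.21). With the length trend removed only Kif5c passed, at 0.35 (adjusted p = 0.020). The other genes with the highest means, Ppp2ca, a phosphatase catalytic subunit, at 799 and 901 CPM, and Prkaca, a catalytic subunit of protein kinase A, at 397 and 440 CPM, did not pass (adjusted p of 0.099 and 0.44).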

How the data were processed

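The deposited tables, 1 per library, give each transcript model a raw read count, per the file headers, on mm10. The deposited annotation names TALON as the source of added models, and annotated member chains equalled GENCODE M21 in 15 of 15 comparisons. The aligner, tool versions and filters were not given in the sources used here. CPM used the total reads of each library (1168366 and 888704). Unannotated models were matched by intron chain. Tests over all genes were exact binomial (at least 10 reads) and Fisher exact (at least 20 reads in each library), with Benjamini-Hochberg adjustment at 0.05. With 2 libraries of 1 group no dispersion can be fitted, so edgeR 4.0.16 and DESeq2 1.42.0 supplied scaling factors only. The length trend is a lowess fit (fraction 0.3) of the log2 ratio over genes with at least 50 reads.

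Members and lists were chosen with earlier results of these data known. The text names the 6 members, their most read transcripts and models, and of each other list the 4 highest genes, class-defining genes and genes past the threshold. Krt8, Krt18, the astrocyte markers, Hopx, Sox2, Mki67, Top2a and the smaller Gfap and Ina forms were named after their values were seen. The tests were tested on simulated data. The alternatives were other scalings, read minimums, sets of models, a length trend and end windows, and each library left out. Python 3.11.15, scipy 1.17.1, statsmodels 0.14.6, bedtools 2.31.1 and R 4.3.3 were used. Some items, among them 1 partner gene that passed the test, are not reported here. No column of the tables was left without a sample.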

Additional observations from a re-analysis of the deposited data

Results flagged for a closer look

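Reads on the strand opposite to a member's exons, which the member comparisons do not use, exceeded the 3 reads that a count of 0 allows for 3 genes. Reads that carry the name of a member are not in these counts. Nefl reads opposite the Nefm-202 last exon, and the Nefm read opposite Nefl exon 1, are therefore left out. Opposite Ina there were 25 reads in replicate 1 and 22 in replicate 2, all on models of Nt5c2, a gene of the other strand. Opposite Nefh there were 4 reads in replicate 1 and 8 in replicate 2, on models of Ap1b1 and an antisense locus. Opposite Nefm there were 7 reads in replicate 1, on 5 models of the antisense, genomic, incomplete match and unannotated splice site classes, and 2 in replicate 2, on antisense and genomic models.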

How the results depend on the processing

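No paired analysis was possible because the series holds 1 group. Nefl and Gfap passed the gene test under 6 of 7 alternatives. With the length trend removed 0 members, 1 partner gene and 394 of all genes passed. TMM scaling and DESeq2 size factors each called 2 other filament genes in place of 0, and under TMM 30.4% of the genes called over the whole table were higher in replicate 2, against 53.6%. The Nefm calls for leading transcript share (0 with annotated transcripts only, where 1 transcript remains, and 0 with spliced models only) and annotated share (0 with spliced models only) rested on 1-exon reads. With annotated transcripts only, the Nefm log2 ratio turned to 0.47, and the Gfap difference in leading transcript share and in leading last exon share to -0.15 points; with spliced models only, the Nefh difference in leading transcript share and in annotated share turned to -4.55 points. None of these passed a test. Of reads on spliced unannotated models 63.0% had the annotated start and 83.3% the annotated end. Summed member levels were 799.6 CPM per kb. Leaving out each library gave sums of 2291 to 2832 CPM, and, in an alternative chosen after seeing the data, starts of 15.8% to 18.9% and ends of 87.4% to 92.6%. Of 49 alternatives over the comparisons 38 kept the result. Depth limits Nefh and Vim most, with 35 to 52 reads per library.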
